A study of Mus musculus with 12 samples.

Results

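The comparison described here is that of neonatal mouse cardiac fibroblasts that received Mef2c, Gata4 and Tbx5 together (MGT) with the same kind of cells that received LacZ, the bacterial beta-galactosidase gene used as a control. The study asked why such reprogramming is poorer in fibroblasts of older mice. It rests on 4 of the 12 libraries of the study, 2 for each vector, chosen by their labelled age and treatment, and on all 16383 genes of the table as used here. The table ends at gene ENSMUSG00000057457, and genes with later identifiers were not analysed here, so each count of a list covers its members in the table (1170 of 1301 listed). The cells were wild-type primary cardiac fibroblasts from the hearts of mice of postnatal days 1 to 3, and the titles give day 3. The other 8 libraries, from adult (3 months) and aged (18 months) mice with the same vectors, entered the fit to estimate the spread. The labels give neither the type of vector and its promoter nor how the fibroblasts were purified. They leave open whether replicate libraries came from different animals or cultures, so p-values measure only the spread between these libraries, which may be technical.

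Direct reprogramming uses heart transcription factors to push a fibroblast towards a cardiomyocyte without passing through a stem cell. Mef2c, Gata4 and Tbx5 bind DNA at muscle and heart enhancers. Besides contractile genes, a fibroblast and a cardiomyocyte differ in the matrix they secrete, in the growth factors they send and receive, and in the way they make ATP. Contractile, calcium-handling and mesothelial genes are therefore treated briefly below, and matrix, signalling and metabolism at length.

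Levels are given as CPM, counts scaled to the total of their library, for each library in the order replicate 1, replicate 2. The 4 libraries held 14532766 to 16339091 counts in the table. Of the delivered genes, Tbx5 measured 2.43 and 1.97 CPM under LacZ against 217 and 269 under MGT, Mef2c 18.2 and 16.5 against 178 and 218, and Gata4 164 and 154 against 268 and 304. All 3 were higher in both MGT libraries than in either LacZ library, and vector and endogenous transcripts cannot be told apart in these counts. Replicates differed by more than counting error, the chi-square statistic over its degrees of freedom being 2.312 between the LacZ and 4.947 between the MGT libraries. Fibroblast markers were abundant in every library: Col1a1, the collagen I chain, measured 6298 and 6308 CPM under LacZ and 5956 and 5801 under MGT. Of 10 fibroblast markers 4 were lower under MGT (Col1a2, Dcn, Pdgfra and Tcf21), 3 of them also whichever neonatal library was left out, and none higher, with a median change of -0.19 on the log2 scale. The summed level of 10 mesothelial markers (FPKM, which also divides by exon length) was 220 and 202 under LacZ and 93.4 and 98.1 under MGT, and 8 of the 10 were lower and 1 (Krt19) higher. Endothelial markers summed to 71.8 and 78.5 under LacZ and 66.2 and 55.6 under MGT, with 1 of 8 lower in a call made only with all libraries or without MGT replicate 1. Macrophage markers summed to 45.0 and 55.1 against 36.9 and 49.7, with 0 of 11 called in edgeR's test. Markers of pericytes summed to 60.9 and 60.01 against 71.2 and 73.2, with Cspg4 alone higher, and those of Schwann cells to 8.43 and 8.72 against 7.10 and 8.05. Lymphocyte, red cell and fat cell markers were at or near 0 in every library, at most 0.23 summed FPKM. For comparison with these marker counts, 4.02% of all tested genes were lower and 5.22% higher in the test described below. In these bulk libraries fewer cells of a type and less RNA per cell cannot be told apart.

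A gene was called when edgeR's quasi-likelihood test gave a Benjamini-Hochberg adjusted p below 0.05 over all 11940 tested genes, and changes are log2 MGT minus LacZ ± SE. Adjusted p-values below come from that test unless another tool or setting is named beside them. Of the tested genes 9.24% were called, 5.22% (623) higher and 4.02% (480) lower under MGT. At least 2-fold, 264 were higher (2.21%) and 118 lower (0.988%), and 491 of the 1103 calls were also made in each of 4 fits that left out 1 neonatal library, 306 higher (2.56% of tested genes) and 185 lower (1.55%). These are called below held in all 5 fits, or in all fits. The median change over all tested genes was -0.003. The count of 1103 fell to 634 without LacZ replicate 1, 644 without LacZ replicate 2 and 631 without MGT replicate 2.

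**Figure D1:**
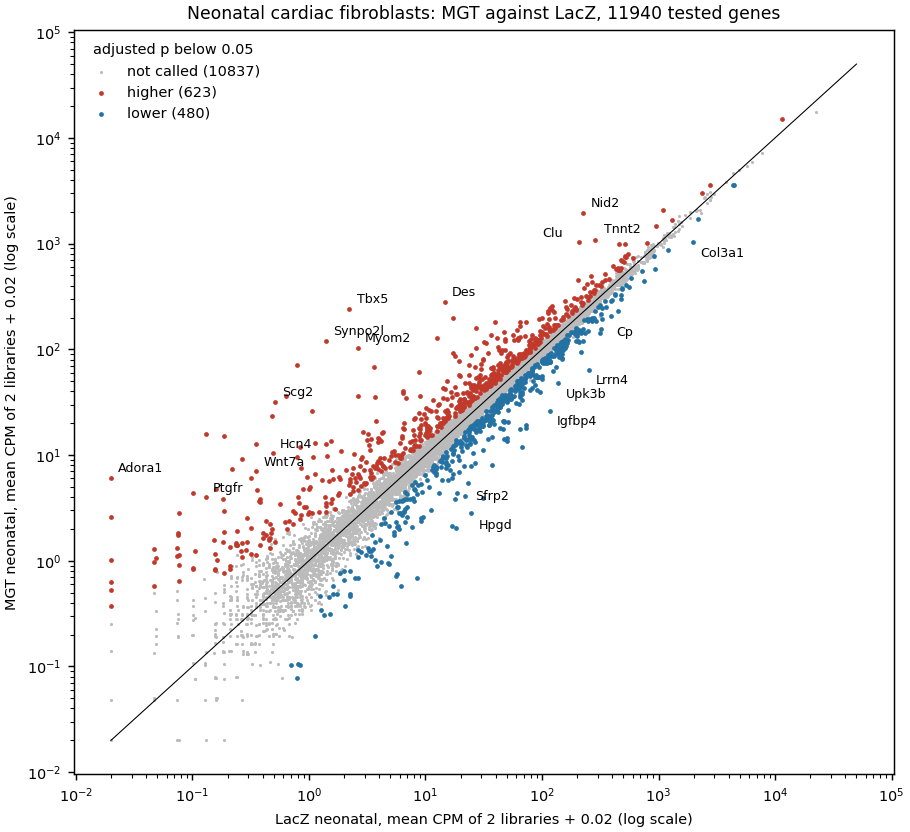
Mean CPM of each tested gene in the 2 MGT neonatal libraries (vertical, log scale) against the 2 LacZ neonatal libraries (horizontal, log scale), with 0.02 added to both so that genes at 0 can be drawn. Red points are the 623 genes higher and blue points the 480 genes lower at an adjusted p below 0.05, grey points were not called, and the line marks equal levels. Large rises reach down to genes near 0 under LacZ, whereas most genes above 100 CPM lie close to the line, with exceptions such as Nid2, Clu, Tnnt2 and Lrrn4.

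Most genes that were abundant in LacZ cells were not called, and few of them changed 2-fold or more. Of 1985 tested genes with a LacZ mean of at least 100 CPM, 127 were lower (6.4%) and 97 higher (4.89%) under MGT, but only 7 were lower and 8 higher by at least 2-fold. The 12 largest falls from that level included those of Igfbp4, Lrrn4, Upk3b, Prelp, Ezr, Cp, Iigp1, Cyp1b1, Col3a1, Tcf21 and Serping1, and the 12 were chosen for the size of their fall among calls made in all 5 fits. Both MGT libraries lay below both LacZ libraries for each of the 12, which this choice favours. The share of such genes over all tested genes was not counted. The smallest of them, Serping1 at -0.92, stood next to Rsad2 at -0.87, which was not included.

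Igfbp4 led these falls. It encodes a secreted protein that binds insulin-like growth factors (ENSMUSG00000017493, mm10 chromosome 11, 99041244 to 99054392), and it measured 118 and 116 CPM under LacZ against 28.5 and 23.9 under MGT. The change was -2.15 ± 0.15 (adjusted p = 7.2e-09). Ezr, which encodes ezrin, the linker between the plasma membrane and cortical actin in microvilli, measured 332 and 298 CPM under LacZ against 138 and 145 under MGT (-1.15 ± 0.091, adjusted p = 3.6e-08). The mesothelial surface genes Lrrn4, at 267 and 239 CPM against 63.0 and 64.8 (-1.98 ± 0.12), and Upk3b, at 145 and 130 against 46.7 and 49.1 (-1.53 ± 0.092), fell beside it, as did the mesothelial markers Wt1 (-1.50), Bnc1 (-1.74), Krt8 (-1.44) and Krt7 (-1.29). The part of the lower mesothelial marker level in these falls was not tested. Bnc1 was not called by DESeq2 (adjusted p = 0.309).

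Other genes of the list have varied roles. Prelp, a small leucine-rich proteoglycan that anchors basement membranes to connective tissue, measured 223 and 212 CPM under LacZ against 92.6 and 96.6 under MGT (-1.20 ± 0.13, adjusted p = 1.6e-06). Cp, the copper-carrying ferroxidase ceruloplasmin, went from 334 and 314 CPM to 166 and 144 (-1.06 ± 0.1, adjusted p = 4.5e-07). Serping1, the C1 inhibitor of the complement system, fell from 416 and 362 CPM to 214 and 197 (-0.92 ± 0.096). Cyp1b1, a cytochrome P450 that metabolises oestrogens and retinoids, measured 458 and 448 CPM under LacZ and 260 and 204 under MGT (-0.97 ± 0.1, adjusted p = 1.5e-06). The interferon-induced GTPase gene Iigp1 measured 111 and 139 CPM against 72.1 and 52.3 (-1.0 ± 0.19, adjusted p = 0.0013), a call that DESeq2 did not make (adjusted p = 0.0591).

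By CPM rather than by fold, the largest losses that held in all 5 fits were those of Col3a1, Clca3a1, Vcam1, Dcn, Cyp1b1 and Lrrn4. Col3a1, a fibrillar collagen chain, measured 2015 and 1955 CPM under LacZ and 1121 and 932 under MGT (-0.95 ± 0.1, adjusted p = 2.6e-06). The surface glycoprotein gene Clca3a1 went from 940 and 928 CPM to 625 and 528 (-0.70 ± 0.097, adjusted p = 5.1e-05), and Vcam1, a leukocyte adhesion receptor, from 1220 and 1214 to 886 and 872 (-0.47 ± 0.084, adjusted p = 0.00084). Dcn, which encodes the collagen-binding proteoglycan decorin, measured 770 and 744 CPM against 470 and 413 (-0.78 ± 0.096, adjusted p = 1.2e-05). In each of these genes the 2 vectors did not overlap, which the choice of genes favours.

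The 12 largest rises to at least 100 CPM under MGT were those of Synpo2l, Myom2, Des, Mustn1, Nid2, Npnt, Clu, Jam2, Hs6st1, Tnnt2, Cthrc1 and Mtss1, the delivered factors left out. They too were chosen for their change, and Mtss1 at 1.88 stood next to Rasa4 at 1.79, which was not included. In all 12 both MGT libraries lay above both LacZ libraries, which this choice favours, and MGT replicate 2 lay above MGT replicate 1. Among the 12 falls MGT replicate 2 was the lower of the pair in 7 and the higher in 5.

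**Figure D2:**
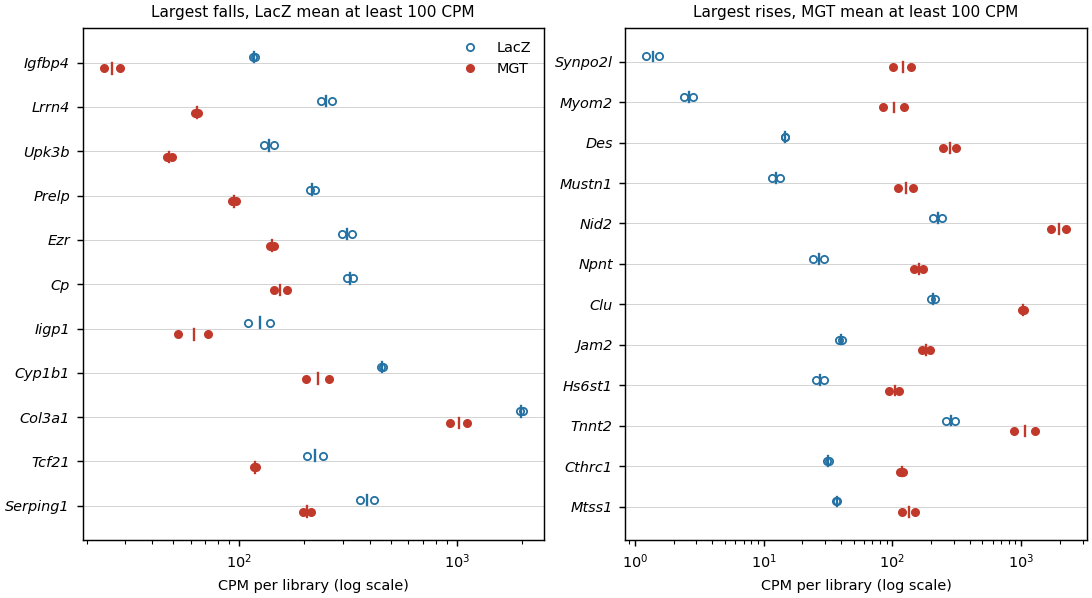
CPM in each neonatal library (horizontal, log scale) for genes among the 12 largest falls from at least 100 CPM under LacZ (left) and the 12 largest rises to at least 100 CPM under MGT (right). Open blue circles are LacZ and filled red circles MGT libraries, and the short vertical line marks the mean of 2. The vectors do not overlap for any gene shown, and the genes were chosen by this change.

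Several of these rises belonged to no contractile structure. Nid2 encodes nidogen 2, which links laminin and collagen IV in basement membranes (ENSMUSG00000021806, mm10 chromosome 14, 19751265 to 19811787). It measured 243 and 207 CPM under LacZ and 1695 and 2216 under MGT, a change of 3.12 ± 0.14 (adjusted p = 1.9e-11) and the largest gain in CPM of any gene called in all 5 fits. Its paralog Nid1 measured 1176 and 1148 CPM against 1104 and 1070 and was not called (-0.10 ± 0.092, adjusted p = 0.68). Npnt, the gene of the matrix ligand nephronectin, measured 29.6 and 24.3 CPM under LacZ against 147 and 172 under MGT (2.57 ± 0.11, adjusted p = 1.2e-11). Itga8, a chain of the integrin it is known to bind, was not called (19.1 and 19.3 against 23.2 and 25.9, 0.35 ± 0.14). Clu, which encodes the secreted chaperone clusterin, went from 213 and 201 CPM to 1007 and 1046 (2.31 ± 0.11, adjusted p = 5.5e-11), with the 2 MGT libraries close together. Cthrc1, a secreted protein with a short collagen-like stretch, measured 32.1 and 30.9 CPM against 115 and 120 (1.90 ± 0.11, adjusted p = 9.6e-10).

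Jam2, a junctional adhesion molecule, measured 40.9 and 38.6 CPM under LacZ and 169 and 197 under MGT (2.20 ± 0.093, adjusted p = 8.2e-12). Hs6st1, which adds 6-O-sulfate to heparan sulfate, went from 29.3 and 25.4 CPM to 94.5 and 113 (1.93 ± 0.13, adjusted p = 2.7e-09). Mustn1, a small nuclear protein of muscle and skeleton, measured 11.6 and 13.5 CPM against 111 and 144 (3.34 ± 0.14, adjusted p = 1.1e-11), and Mtss1, which bends membranes at the actin cortex, 36.3 and 37.3 against 120 and 151 (1.88 ± 0.11, adjusted p = 7.9e-10). Among the largest gains in CPM were also Tpm1, the actin-binding tropomyosin (1097 and 1089 against 1939 and 2236, 0.93 ± 0.08), and Slc6a6, the taurine transporter (457 and 453 against 928 and 1035, 1.11 ± 0.095). The filament genes of the list were Des, desmin, at 14.8 and 14.6 CPM against 249 and 313 (4.26 ± 0.12), Myom2, an M-band protein, at 2.83 and 2.40 against 84.0 and 123 (5.31 ± 0.19), and Tnnt2, cardiac troponin T, at 308 and 262 against 878 and 1270 (1.91 ± 0.14). Ankrd1, a stretch-sensitive repeat protein of heart muscle that fibroblasts also express, gained from 947 and 967 CPM to 1397 and 1532 (0.61 ± 0.077, adjusted p = 1.5e-05).

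For these 24 genes the neonatal change was set against the mean of the changes in adult and aged cells by a contrast in the same fit. Over all tested genes 3.93% were called in that contrast, 0.854% with the neonatal change the more positive and 3.07% with it the more negative. Of the 12 falls 3 were called, all more negative in neonatal cells, and of the 12 rises 7 were called, 6 more negative and 1 (Jam2) more positive. Outside these calls, alternatives also called the differences of Cyp1b1 (-0.41, adjusted p = 0.069; by DESeq2 adjusted p = 0.0363), Mustn1 (-0.60, adjusted p = 0.067; by DESeq2 adjusted p = 0.0301) and Hs6st1 (0.55, adjusted p = 0.054; by DESeq2 adjusted p = 0.0406). The genes were picked on the neonatal change, which is part of this contrast, and animals of different ages cannot share a cell preparation, so an effect of age and one of the preparation cannot be told apart.

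Ezr changed in opposite directions: from a neonatal LacZ mean of 315 CPM it fell, while from LacZ means of 18.8 and 21.8 CPM in adult and aged cells its change was 0.91 and 0.65. The difference was -1.93 ± 0.12 (adjusted p = 4.5e-09). Igfbp4 stood at 61.5 and 57.8 CPM in adult and aged LacZ cells, where its changes were -0.48 and 0.14 (difference -1.99 ± 0.18, adjusted p = 9.8e-07). Clu reached 1027 CPM in neonatal MGT cells from 207, and 1642 and 293 CPM in adult and aged MGT cells from 86.2 and 7.62. Its log2 change was smaller in neonatal cells (difference -2.45 ± 0.14), and a part of the LacZ level in this was not tested. Jam2 went from 39.7 to 183 CPM in neonatal cells, from 193 to 535 in adult and from 198 to 459 in aged cells (difference 0.86 ± 0.11, adjusted p = 5e-05).

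Promoter windows were inspected for letters that the delivered factors are known to bind. RefSeq promoter sequences of build GRCm38.p6, 250 bases before to 50 after an annotated start, matched 9427 of the 11940 tested genes by symbol. Searched on both strands, the MEF2 consensus was present in a window of 2.17% of these genes, of 8.29% (16 of 193) of those at least 2-fold higher and of 6.9% (6 of 87) of those at least 2-fold lower. GATA letters, AGATAA, were present in 7.71%, 9.33% and 12.64% of the same groups, and T-box letters, GGTGTGA, in 4.26%, 5.7% and 4.6%. A match is only a match of letters and was not tested, and the lists of called genes were short. The 16 genes with MEF2 letters included Xirp2, Ttn, Casq2 and Mybpc3 of muscle, and the 6 included Cp.

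Windows of 5 genes that rose are shown because they carry these letters at different places, so they do not stand for the rises at large. Of 51 rises that met the rule for naming and had a window, 5 carried MEF2 letters before a start, Dmd among them. The motif letters are in capitals, and the 250 bases before the start are written 5′ to 3′ on the gene's strand. In Synpo2l, which encodes a Z-disc actin binder and rose from 1.53 and 1.23 CPM to 101 and 141, MEF2 letters begin 144 bases and T-box letters 69 bases before the start, and another annotated start has MEF2 letters 109 bases before it. Myh1 and Myh8, skeletal myosin heavy chains, carry the same 10 MEF2 letters 211 and 99 bases before their starts. Pgam2, the muscle form of the glycolytic enzyme phosphoglycerate mutase, has other letters of the MEF2 consensus at 80 bases. Ankrd1 has T-box letters at 76 and GATA letters at 47 bases.
Synpo2l, chr14:20664575-20664824, minus strand: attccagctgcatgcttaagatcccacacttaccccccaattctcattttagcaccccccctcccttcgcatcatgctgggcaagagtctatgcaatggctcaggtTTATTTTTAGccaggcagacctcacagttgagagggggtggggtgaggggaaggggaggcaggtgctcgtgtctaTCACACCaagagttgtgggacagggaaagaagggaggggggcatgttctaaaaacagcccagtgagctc
Myh1, chr11:67199852-67200101, plus strand: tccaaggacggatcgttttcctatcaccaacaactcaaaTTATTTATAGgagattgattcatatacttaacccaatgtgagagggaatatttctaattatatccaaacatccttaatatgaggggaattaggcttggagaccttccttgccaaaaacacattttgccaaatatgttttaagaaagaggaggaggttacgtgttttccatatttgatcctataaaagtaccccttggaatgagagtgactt
Myh8, chr11:67276874-67277123, plus strand: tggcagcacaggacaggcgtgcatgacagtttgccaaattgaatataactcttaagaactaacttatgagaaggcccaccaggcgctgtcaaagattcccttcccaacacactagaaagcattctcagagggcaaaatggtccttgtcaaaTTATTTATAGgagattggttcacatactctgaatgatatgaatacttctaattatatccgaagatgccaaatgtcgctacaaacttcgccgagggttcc
Pgam2, chr11:5803797-5804046, minus strand: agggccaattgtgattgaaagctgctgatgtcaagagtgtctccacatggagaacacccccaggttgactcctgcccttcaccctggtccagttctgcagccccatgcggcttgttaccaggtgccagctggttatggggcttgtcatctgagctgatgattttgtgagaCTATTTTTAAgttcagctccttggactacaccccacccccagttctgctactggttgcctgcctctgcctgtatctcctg
Ankrd1, chr19:36119845-36120094, minus strand: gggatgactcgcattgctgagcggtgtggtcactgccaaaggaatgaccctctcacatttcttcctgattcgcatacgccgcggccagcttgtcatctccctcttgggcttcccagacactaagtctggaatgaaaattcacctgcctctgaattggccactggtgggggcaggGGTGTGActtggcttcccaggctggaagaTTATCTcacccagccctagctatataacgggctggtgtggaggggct

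Lists of genes by pathway and structure were then counted. A list is read against the 5.22% higher and 4.02% lower of all tested genes, and its median against -0.003. The lists of the dystrophin complex, smooth muscle and SRF targets, and skeletal muscle had 45.0%, 40.7% and 36.8% of their tested genes higher and none lower. Among the pathway lists proteoglycans and matricellular proteins were at the other end, with 40.5% lower and 8.11% higher, followed by matrix proteases and their inhibitors with 31.7% lower and 12.2% higher.

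**Figure D3:**
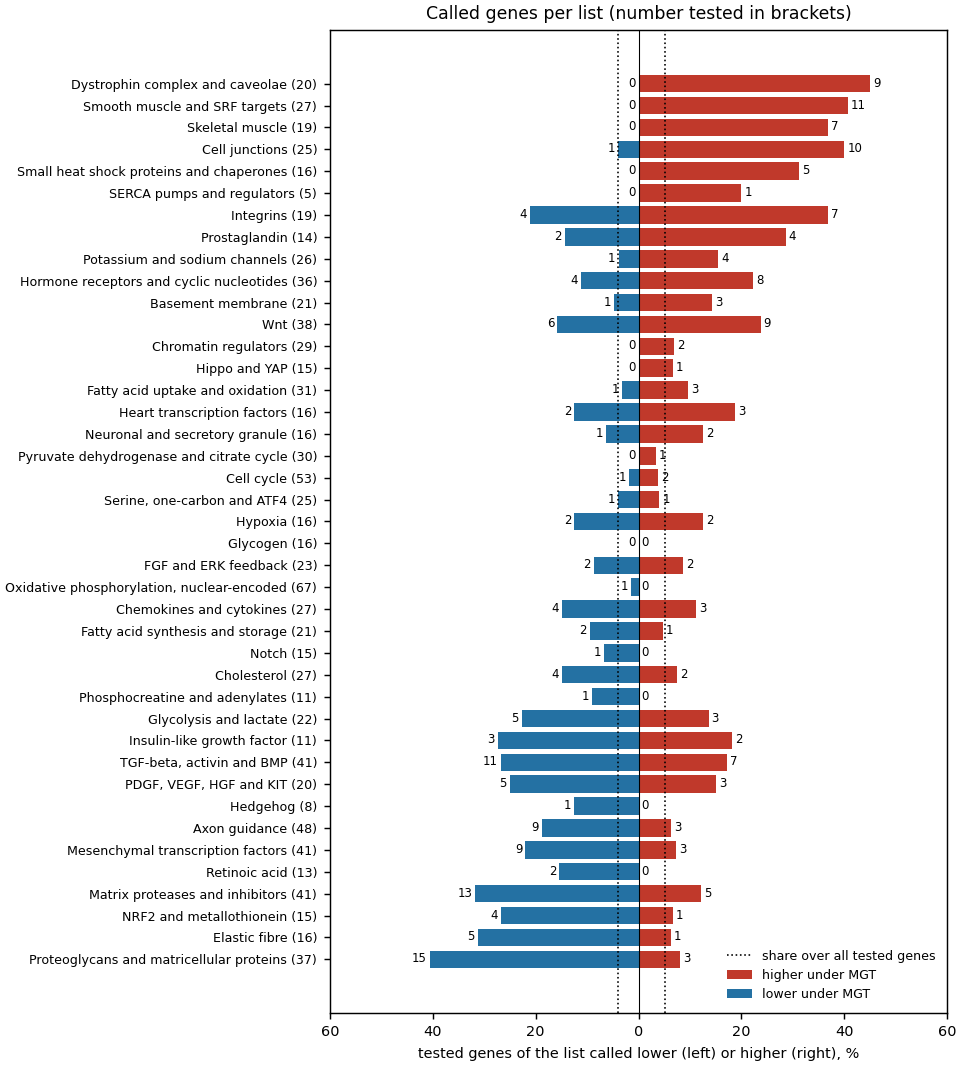
Share of each list's tested genes that was called higher (red, right) or lower (blue, left) under MGT in neonatal cells, in percent, with the number called at the end of each bar and the number tested in brackets. Dotted lines mark the shares over all tested genes, 5.22% and 4.02%. Dystrophin complex, smooth muscle and cell junction lists reach furthest to the right and proteoglycans and matrix proteases furthest to the left, while glycogen, citrate cycle and oxidative phosphorylation lists stay inside the dotted lines.

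Of 37 proteoglycan and matricellular genes 15 were lower and 3 higher, with a median of -0.31, and 9 and 2 of these held in all 5 fits, the 15 becoming 9 without LacZ replicate 1 and 10 without MGT replicate 2. Among the small leucine-rich proteoglycans, which bind collagen and set fibril width, Lum measured 38.1 and 37.0 CPM under LacZ and 9.10 and 7.11 under MGT (-2.21 ± 0.14, adjusted p = 1.9e-09). Fmod, the fibromodulin gene, went from 18.7 and 15.2 CPM to 7.08 and 5.06 (-1.47 ± 0.21, adjusted p = 7e-05). Ogn (-1.04), Prelp (-1.20) and Dcn (-0.78), of the same family, were also lower. Acan ran the other way: this large cartilage proteoglycan gene, aggrecan, measured 3.79 and 2.56 CPM under LacZ against 16.7 and 14.9 under MGT (2.32 ± 0.19, adjusted p = 8.3e-08). The glypican gene Gpc1 was higher by 0.61. Summed FPKM of the 22 proteoglycan genes was 1343 and 1283 under LacZ and 1028 and 976 under MGT, while that of the matricellular genes lay between 5518 and 5739 in the 4 libraries.

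Elastic fibre genes followed, with 5 of 16 lower and 1 higher, of which Eln and Fbn2 held in all fits, and the rise was lost without any single library; the 5 became 2 without LacZ replicate 1 or MGT replicate 2 and 3 without LacZ replicate 2. Eln, elastin itself, measured 56.2 and 46.6 CPM against 21.5 and 19.7 (-1.32 ± 0.12, adjusted p = 2.3e-07), and the microfibril gene Fbn2 21.3 and 21.9 against 7.75 and 7.84 (-1.47 ± 0.19, adjusted p = 1.6e-05). Of 41 proteases and inhibitors 13 were lower and 5 higher, 8 and 2 in all fits, and the 5 became 2 without LacZ replicate 2 or MGT replicate 2. Mmp3, stromelysin, went from 32.4 and 29.8 CPM to 12.4 and 9.88 (-1.48 ± 0.13, adjusted p = 2.1e-07), whereas Adamtsl2, a fibrillin-binding relative of the ADAMTS proteases without their catalytic part, went from 54.4 and 41.5 to 114 and 137 (1.39 ± 0.14, adjusted p = 7.3e-07).

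Basement membrane genes were mostly not called: 3 of 21 were higher and 1 lower. Only Nid2 (above) and the laminin chain gene Lama5, lower from 146 and 134 CPM to 89.4 and 81.2 (-0.72 ± 0.14, adjusted p = 0.0023), held in all fits, and the 3 became 1 without LacZ replicate 1, LacZ replicate 2 or MGT replicate 1.

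Receptors for the matrix split. Of 19 integrin genes 7 were higher and 4 lower (median 0.35), 6 and 1 in all fits. Itga7, the laminin receptor chain of muscle, measured 65 and 58.5 CPM against 116.7 and 140 (1.06 ± 0.11, adjusted p = 9.3e-07). Another laminin receptor chain, Itga6, measured 67.7 and 74.1 against 121 and 145 (0.91 ± 0.11), and Itga5, the fibronectin receptor chain, 240 and 245 against 404 and 431 (0.78 ± 0.086). Itgb3, a vitronectin receptor chain, measured 38.2 and 37.6 against 69.0 and 66.8 (0.84 ± 0.095). The 4 lower were Itga3, Itgb2, Itgb4 and Itgb8, of which Itga3 held in all fits (55.2 and 54.7 against 35.7 and 34.5, -0.65 ± 0.13), and the 4 became 2 without LacZ replicate 1 or MGT replicate 2 and 1 without LacZ replicate 2. Of 25 junction genes 10 were higher and 1 lower, but the 10 became 3 without LacZ replicate 1, 4 without LacZ replicate 2 or MGT replicate 2 and 5 without MGT replicate 1. The 3 that held were Jam2, the cadherin gene Cdh13 (34.0 and 28.9 against 76.3 and 82.6, 1.34 ± 0.12) and the desmosome gene Dsp (6.79 and 8.75 against 15.8 and 18.6, 1.14 ± 0.19). Gja1, the main connexin of ventricular muscle and of fibroblasts, measured 119 and 121 CPM against 116 and 124 and was not called.

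TGF-beta, activin and BMP ligands signal through paired serine kinase receptors to SMAD proteins, and secreted antagonists hold the ligands back. In neonatal cells the ligand genes Tgfb2 and Tgfb3 and the antagonist genes Nog and Fst rose, while the BMP-type ligands Bmp4 and Gdf6 and the BMP targets Id1, Id2 and Id3 fell. Of 41 tested genes 7 were higher and 11 lower, 7 and 6 in all fits; the 11 became 6 without LacZ replicate 1 and 7 without MGT replicate 2. Among the ligands, Tgfb2 measured 74.3 and 71.3 CPM under LacZ and 151 and 211 under MGT (1.31 ± 0.12, adjusted p = 2.3e-07). Tgfb3 measured 110 and 113 against 199 and 246 (0.99 ± 0.097, adjusted p = 6.6e-07). Tgfb1, the ligand most studied in fibrosis, was not called (82.4 and 88.4 against 93.4 and 88.7, 0.09 ± 0.1). Inhba, the activin A chain, rose by 0.50, whereas Bmp4 went from 40.2 and 36.3 CPM to 21.0 and 21.4 (-0.85 ± 0.12) and Gdf6, another BMP-type ligand, was lower by a change of -0.67. Bmp2 lay under 2 CPM and was not called (1.5 ± 0.48, adjusted p = 0.058), though it was with no filter on low counts (adjusted p = 0.0239) or with the 4 neonatal libraries alone (adjusted p = 0.0238).

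Antagonists and carriers of these ligands moved too. Nog, noggin, which traps BMPs, measured 1.53 and 1.01 CPM under LacZ against 5.23 and 6.27 under MGT (2.18 ± 0.35, adjusted p = 0.00028). Fst, follistatin, which traps activins, measured 48.7 and 45.9 against 153 and 141 (1.63 ± 0.1, adjusted p = 1.2e-09). Ltbp1, which stores latent TGF-beta in the matrix, rose by 0.93, and the receptor gene Tgfbr1 by 0.62. The BMP targets Id1 (83.7 and 81.7 against 46.0 and 40.0, -0.94 ± 0.096), Id2 (-0.74) and Id3 (-0.51), inhibitors of bHLH factors, were lower, as was Smad6 (-0.45), which feeds back on BMP signals. Ccn2, a target that TGF-beta is known to raise, measured 2505 and 2533 CPM against 2613 and 2856 (0.12 ± 0.081) and was not called. Inhba, Bmp4, Gdf6, Ltbp1, Tgfbr1, Id1, Id2, Id3 and Smad6 were singled out after their values were seen.

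Wnt ligands bind Frizzled receptors, and secreted antagonists (SFRPs, Dickkopfs, WIF1) block them. Of 38 Wnt genes 9 were higher and 6 lower, 6 and 3 in all fits; the 9 became 6 without LacZ replicate 2 or MGT replicate 2, and the 6 became 3 without LacZ replicate 1, LacZ replicate 2 or MGT replicate 2. Wnt7a was near the limit of detection under LacZ, at 0.396 and 0.267 CPM, and measured 7.64 and 6.33 under MGT (4.38 ± 0.31, adjusted p = 9e-09). Wnt5a, which acts mainly without beta-catenin, went from 38.6 and 35.9 CPM to 13.9 and 15.6 (-1.34 ± 0.13, adjusted p = 6.1e-07). Wnt receptor genes Fzd6 (1.05), Fzd1 (0.71) and Fzd7 (0.60) rose. Of the antagonists, Sfrp2 went from 22.2 and 21.1 CPM to 3.32 and 4.82 (-2.41 ± 0.17, adjusted p = 7.9e-09) and Sfrp1 from 249 and 246 to 166 and 131 (-0.73 ± 0.14). Wif1 had 1 count over both LacZ libraries and 43 over both MGT libraries, a ratio of 45.5 with a 95% counting interval of 7.75 to 1840. Axin2, a target of beta-catenin and a brake on it, measured 0.849 and 0.907 CPM against 4.33 and 5.12 (2.42 ± 0.37, adjusted p = 0.00014). Wnt5a, Sfrp1 and the Frizzled genes were singled out after their values were seen.

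Insulin-like growth factors act through a receptor kinase and are carried by binding proteins. Here 5 of 6 binding proteins changed, in both directions, and none of 5 ligands and receptors was called. Igfbp3, the main carrier in blood, measured 49.1 and 51.9 CPM under LacZ and 16.4 and 12.5 under MGT (-1.80 ± 0.15, adjusted p = 5.8e-08), beside the fall of Igfbp4 given above. Igfbp5 measured 10.0 and 7.79 against 35.5 and 37.4 (2.03 ± 0.18, adjusted p = 1.4e-07) and Igfbp2 27.3 and 29.7 against 50.4 and 57.9 (0.92 ± 0.12, adjusted p = 2.5e-05). The fifth, Igfbp6 (-0.62), was not called without LacZ replicate 2 or MGT replicate 2. Igfbp7, the most abundant, was not called at 1118 and 1080 against 1094 and 1146 CPM. The ligand gene Igf1 measured 33.7 and 33.4 against 35.8 and 31.7, and Igf1r changed by 0.26 ± 0.1 (adjusted p = 0.13), a change that was called when the 4 neonatal libraries were fitted alone (adjusted p = 0.00162) or without the filter on low counts (adjusted p = 0.0494).

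Prostaglandins are made from arachidonic acid by phospholipase and cyclooxygenase and broken down by Hpgd. The synthesis genes Pla2g4a and Ptgs2 rose while the breakdown gene fell. Ptgs2, inducible cyclooxygenase, measured 116 and 128 CPM under LacZ and 291 and 218 under MGT (1.06 ± 0.11, adjusted p = 2e-06), and Pla2g4a, the cytosolic phospholipase, 54.1 and 56.1 against 81.4 and 76.0 (0.51 ± 0.093, adjusted p = 0.0009). Ptgs1, the constitutive cyclooxygenase, was lower by a change of -0.49 that was kept in only 1 of the 4 fits without a library. Ptgfr, the receptor for prostaglandin F2α, rose from 0.113 and 0.107 CPM to 3.43 and 4.52 (5.08 ± 0.49, adjusted p = 5.5e-07). Of 14 genes 4 were higher and 2 lower, and the 2 became 1, Hpgd, without LacZ replicate 1, LacZ replicate 2 or MGT replicate 2.

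**Figure D4:**
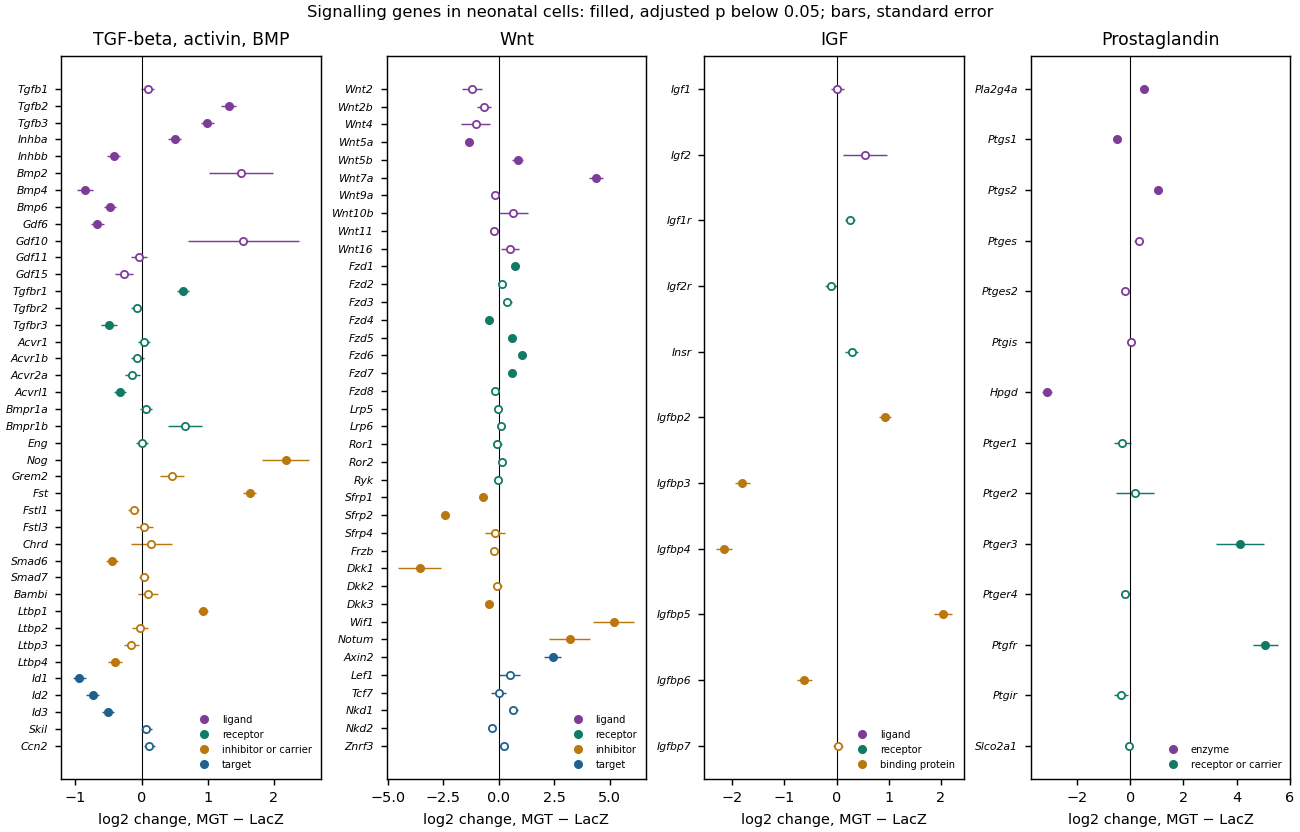
Log2 change, MGT minus LacZ (horizontal), of tested genes of 4 signalling lists, in neonatal cells. Colours mark the role of the gene, filled circles an adjusted p below 0.05, open circles genes not called, and bars the standard error. Noggin, follistatin, Wnt7a, Wif1, Igfbp5 and Ptgfr lie far to the right, and Sfrp2, Igfbp3, Igfbp4 and Hpgd far to the left, while receptors of insulin-like growth factors lie near 0.

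Among growth factors that act on receptor tyrosine kinases, 3 of 20 genes of the PDGF, VEGF, HGF and KIT group were higher and 5 lower, the 5 becoming 3 without LacZ replicate 1 and 2 without LacZ replicate 2 or MGT replicate 2. Hgf, a ligand for epithelial and endothelial cells, went from 9.56 and 13.8 CPM to 36.0 and 30.8 (1.51 ± 0.17, adjusted p = 3.7e-06). Flt1, a VEGF receptor that also acts as a decoy, measured 53.9 and 60.4 against 120 and 126 (1.10 ± 0.11), and Pdgfc 10.1 and 9.50 against 20.2 and 20.3 (1.04 ± 0.18). Vegfd, a lymphatic growth factor, fell from 48.0 and 45.9 CPM to 21.9 and 20.4 (-1.15 ± 0.11), whereas Vegfa was not called (210 and 209 against 236 and 224). Pdgfra, the receptor that marks fibroblasts, fell from 202 and 192 to 131 and 111 (-0.70 ± 0.091). Of 23 FGF genes 2 were higher and 2 lower, and only the receptors Fgfr3 (1.92 and 1.71 against 5.68 and 6.27, 1.71 ± 0.25) and Fgfr2 (52.4 and 49.1 against 28.3 and 25.2, -0.92 ± 0.13) held in all fits, the higher count becoming 1 without any single library and the lower count 1 without any but MGT replicate 1.

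The Notch, Hippo and hedgehog lists gave 1 call each. Of 15 Notch genes 0 were higher and 1 (Lfng, -0.98) was lower, and that call was made only with all libraries or without LacZ replicate 2. Hes1, the standard Notch target, measured 34.7 and 33.0 CPM against 36.4 and 30.9 and was not called. Of 15 Hippo genes only Ankrd1 was called, and the YAP target Ccn1 measured 1111 and 1119 against 1214 and 1187. In the hedgehog list 1 of 8 was called, the co-receptor gene Gas1, at 14.6 and 11.7 against 5.23 and 3.44 CPM (-1.59 ± 0.27, adjusted p = 0.00051). Aldh1a1, a retinoic acid synthesis enzyme, measured 203 and 194 against 139 and 142 (-0.51 ± 0.079, adjusted p = 0.0002). Axon guidance genes, which also steer cells in developing organs, had 9 of 48 lower and 3 higher, the 9 becoming 4 without LacZ replicate 1 or MGT replicate 1, and 6 without LacZ replicate 2, and the 3 becoming 1 without LacZ replicate 2 or MGT replicate 2. With all libraries 18.8% of the axon guidance genes were lower and 6.25% higher, against 4.02% and 5.22% of all tested genes. The netrin gene Ntn4 was the largest change, from 63.5 and 66.1 CPM to 164 and 198 (1.48 ± 0.094, adjusted p = 1.9e-09), and Sema3f, Sema6d and the ephrin gene Efna5 were lower by changes of -0.87, -0.86 and -0.83.

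Secreted signals to immune cells and to the heart itself also changed. Of 27 chemokine and cytokine genes 3 were higher and 4 lower. Tslp, an epithelial-type cytokine, measured 3.17 and 3.04 CPM under LacZ and 12.4 and 15.2 under MGT (2.15 ± 0.17, adjusted p = 3.3e-08), and the membrane chemokine gene Cx3cl1 20.5 and 19.2 against 34.8 and 32.7 (0.77 ± 0.13). Csf3, which drives neutrophil production, fell from 3.68 in both libraries to 0.674 and 1.33 (-1.88 ± 0.35, adjusted p = 0.0011). Cxcl10 went from 51.7 and 76.4 to 29.4 and 31.2 (-1.08 ± 0.19), a call DESeq2 did not make (adjusted p = 0.0562). Natriuretic peptide genes rose, Nppb from 0.283 and 1.60 CPM to 5.84 and 6.63 (2.69 ± 0.36) and Nppa from 3.56 and 4.8 to 13 and 19.5 (1.95 ± 0.25). Adenosine receptors went opposite ways: Adora1, which lowers cyclic AMP, had 0 counts under LacZ and 5.0 and 7.17 CPM under MGT, at least 73.4-fold higher against 3 counts over both LacZ libraries, while Adora2b, which raises it, went from 7.53 and 7.10 to 3.71 and 3.92 (-0.94 ± 0.18). The vasodilator peptide gene Adm fell from 209 and 210 CPM to 116 and 118 (-0.84 ± 0.083, adjusted p = 7.2e-07). Of 36 hormone receptor and cyclic nucleotide genes 8 were higher and 4 lower, the 8 becoming 4 without either LacZ library and 5 without MGT replicate 2.

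Genes of the respiratory complexes, the citrate cycle and glycogen were rarely called. A mature cardiomyocyte burns fatty acids in densely packed mitochondria, and a fibroblast in culture relies more on glycolysis. None of 65 common subunits of the nuclear-encoded respiratory complexes was called by edgeR, while 1 of 2 tested muscle-type or alternative subunits was lower. The summed FPKM of the 69 listed genes in the table was 3242 and 3309 under LacZ and 3273 and 3408 under MGT. None of 20 citrate cycle enzymes and none of 16 glycogen genes was called by edgeR either, with medians of 0.01 and 0.03. Pdk4, a kinase that inhibits pyruvate dehydrogenase, did rise, from 14.4 and 10.7 CPM to 23.5 and 21.8 (0.86 ± 0.13, adjusted p = 0.00022). Its relative Pdk1 was not called (-0.44 ± 0.17, adjusted p = 0.14), though it was with the 4 neonatal libraries alone (adjusted p = 0.0243) or with no filter (adjusted p = 0.033). Of 31 fatty acid uptake and oxidation genes 3 were higher and 1 lower, and none of these calls held in all fits: the 3 became 0 without LacZ replicate 1 and 1 without LacZ replicate 2 or MGT replicate 2. Ppargc1a, a coactivator of mitochondrial genes, lay below 1 CPM in all 4 libraries and was not called.

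Glycolysis had 3 of 22 genes higher and 5 lower, and 2 rises held in all fits while none of the falls did; the 5 became 1 without LacZ replicate 1, 2 without LacZ replicate 2, 3 without MGT replicate 1 and 0 without MGT replicate 2. With all libraries 13.6% of the glycolysis genes were higher and 22.7% lower, against 5.22% and 4.02% of all tested genes. Pgam2 measured 3.62 and 3.41 CPM under LacZ and 7.31 and 8.5 under MGT (1.17 ± 0.22, adjusted p = 0.0013), and Pfkp, a phosphofructokinase, 74.7 and 82.0 against 109 and 119 (0.54 ± 0.099, adjusted p = 0.001). The glucose transporter gene Slc2a1 was not called (88.6 and 93.7 against 91.8 and 97.0). Of 21 fatty acid synthesis and storage genes 2 were lower and 1 higher, and the rise was lost without any single library. The falls were those of the desaturases Fads2, lower from 133 and 132 CPM to 91.3 and 88.1 (-0.56 ± 0.08, adjusted p = 7e-05), and Fads1, lower from 131 and 132 to 98.3 and 100.2 (-0.41 ± 0.079, adjusted p = 0.0016), while the fatty acid synthase gene Fasn was not called (-0.07 ± 0.13). Of 27 cholesterol genes 2 were higher and 4 lower, and only the oxysterol enzyme gene Ch25h (96.1 and 105 against 137 and 143, 0.48 ± 0.084) held in all fits, the 4 becoming 0 without LacZ replicate 1 and 1 without LacZ replicate 2 or MGT replicate 1, and the 2 becoming 1 without LacZ replicate 1 or MGT replicate 2. Ampd3, AMP deaminase, was lower at 83.6 and 80.4 against 59.6 and 58.0 (-0.48 ± 0.09).

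Stress and oxygen-linked genes gave single large changes. Egln3, a prolyl hydroxylase that marks HIF for destruction and is itself induced by HIF, measured 23.0 and 25.8 CPM under LacZ and 69.6 and 105 under MGT (1.84 ± 0.16, adjusted p = 1.3e-07), while 2 of 16 hypoxia genes in all were higher and 2 lower, 1 of each in all fits. Of 15 NRF2 and metallothionein genes 4 were lower and 1 higher, the rise being lost without any single library. Gsta4, a glutathione transferase (5.66 and 5.65 against 2.47 and 1.63, -1.45 ± 0.27), Mt2, a metallothionein (33.2 and 38.2 against 20.1 and 21.2, -0.79 ± 0.11), and the quinone reductase gene Nqo1 (41.3 and 41.4 against 28.0 and 25.3, -0.63 ± 0.12) held in all fits. Vldlr, a lipoprotein receptor in the serine and ATF4 list, rose from 30.3 and 34.3 to 49.1 and 60.1 (0.75 ± 0.11), the sole rise among its 25 genes, beside 1 fall.

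**Figure D5:**
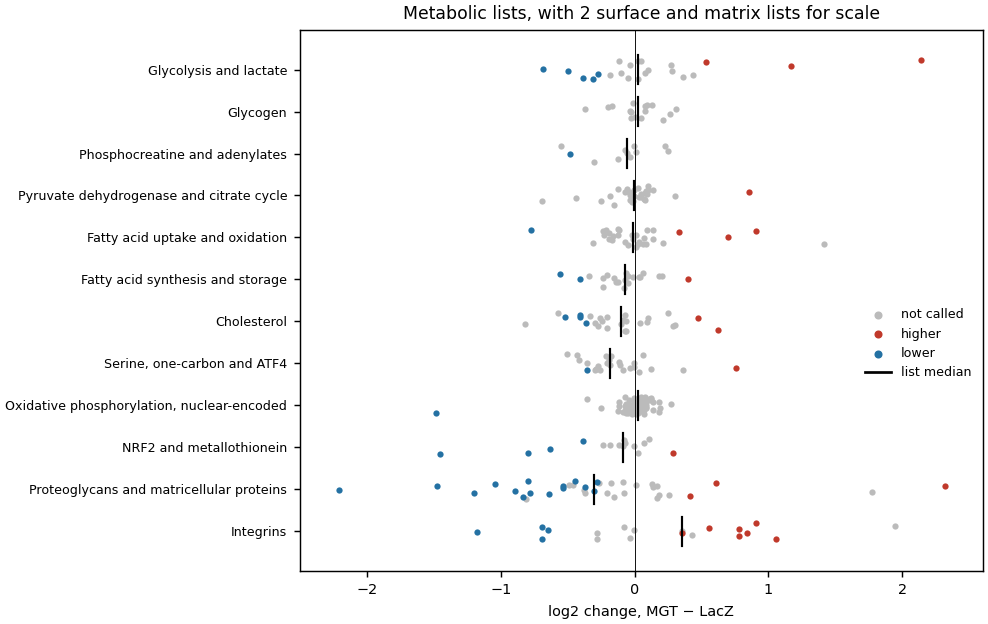
Log2 change, MGT minus LacZ (horizontal), of each tested gene in 10 metabolic and stress lists and, for scale, of proteoglycans and integrins, in neonatal cells. Red and blue points were called higher and lower, grey points were not called, and the black line is the median of the list; the vertical scatter within a row has no meaning. Oxidative phosphorylation genes crowd around 0 with a median of 0.03, whereas proteoglycans have a median of -0.31 and integrins of 0.35.

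Of the genes called in the smooth muscle, dystrophin complex and skeletal muscle lists, all were higher under MGT, though most listed genes were not called. Of 27 smooth muscle and SRF target genes 11 were higher and none lower, 5 in all fits, the 11 becoming 6 without LacZ replicate 1, 7 without LacZ replicate 2 and 5 without MGT replicate 2. Ldb3, a Z-disc PDZ protein gene, measured 18.2 and 17.7 CPM against 76.9 and 95.5 (2.26 ± 0.12, adjusted p = 1.6e-10), and its relative Pdlim3 21.6 and 17.3 against 61.3 and 93.2 (1.99 ± 0.16). Ablim1, an actin-binding LIM protein gene, measured 43.2 and 38.6 against 118 and 140 (1.66 ± 0.11). Myh11, the smooth muscle myosin gene, was not called (6.85 and 6.51 against 5.56 and 5.48). Of 20 dystrophin complex and caveola genes 9 were higher and none lower, and the 9 became 3 without LacZ replicate 1, LacZ replicate 2 or MGT replicate 2, and 6 without MGT replicate 1. Dmd, dystrophin, which ties actin to the membrane, measured 28.8 and 28.9 CPM against 51.5 and 47.0 (0.77 ± 0.11, adjusted p = 6.8e-05), its partner Dtna 22.6 and 26.5 against 42 and 44.1 (0.81 ± 0.11), and Popdc3, a cyclic AMP binding membrane protein of muscle, 1.19 and 0.800 against 4.72 and 5.24 (2.32 ± 0.39).

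Skeletal muscle genes were among them, 7 of 19 higher and none lower, 4 in all fits. The skeletal muscle regulators Myod1, Myf5 and Myf6 had 0 counts in all 4 libraries, and a count of 0 allows up to 3 counts, or 0.16 to 0.1808 CPM. Myh8, perinatal myosin, had 0 counts under LacZ and 1.57 and 3.62 CPM under MGT, at least 31.1-fold higher against 3 counts over both LacZ libraries. It sits beside near-identical myosin genes, as does Myh1 (0.962 and 0.267 against 28.5 and 44.3), so the split of reads among them is uncertain. Casq1, the skeletal calcium store protein (1.41 and 1.28 against 3.93 and 4.04, 1.56 ± 0.29), and Jph1, which holds the sarcoplasmic reticulum to the surface membrane (10.1 and 10.1 against 16.7 and 21.4, 0.91 ± 0.15), were higher. Sln, which brakes the calcium pump, had 2 counts under LacZ and 95 under MGT, a ratio of 50.3 with a 95% counting interval of 13.6 to 421, while the pump gene Atp2a2 itself was not called (450 and 456 against 494 and 505). That pump was called when the 4 neonatal libraries were fitted alone (0.14, adjusted p = 0.0302).

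Ion channels, chaperones and regulators added single genes. Hcn4, the pacemaker channel, measured 0.566 and 0.373 CPM under LacZ and 10.5 and 10.2 under MGT (4.45 ± 0.37, adjusted p = 2.5e-07), and the potassium channel gene Kcna6 0.566 and 1.07 against 12 and 11.9 (3.85 ± 0.3, adjusted p = 3.5e-08). Scn7a, a sodium channel relative that senses salt, fell from 8.09 and 7.63 to 4.10 and 3.74 (-1.0 ± 0.19). Of 16 small heat shock and chaperone genes 5 were higher and none lower, such as Hspb7, a cardiac form (65.9 and 64.5 against 158 and 172, 1.34 ± 0.088), and Cryab, which protects desmin filaments (260 and 265 against 467 and 531, 0.92 ± 0.093); the 5 became 3 without MGT replicate 2.

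Transcription factors other than those delivered changed in both directions. Myocd, myocardin, the SRF coactivator of heart and smooth muscle, measured 2.32 and 2.29 CPM under LacZ and 7.47 and 5.67 under MGT (1.51 ± 0.3, adjusted p = 0.002), and was the only one of 3 rises among 16 heart factors to hold in all fits, the 3 becoming 1 without LacZ replicate 1 or MGT replicate 2. Klf5, a zinc finger factor of smooth muscle and epithelium, went from 7.86 and 8.32 to 21.3 and 23.4 (1.46 ± 0.15, adjusted p = 9.9e-07). Of 41 mesenchymal factors 9 were lower and 3 higher, the 9 becoming 6 without LacZ replicate 1 or MGT replicate 1, 4 without LacZ replicate 2 and 5 without MGT replicate 2. Tcf21, which cardiac fibroblasts need to form, measured 244 and 205 CPM against 118 and 119 (-0.92 ± 0.12, adjusted p = 1.5e-05), Wt1, of mesothelium and epicardium, 20.6 and 18.5 against 6.91 and 6.93 (-1.50 ± 0.2), and Plagl1, an imprinted growth regulator, 94.0 and 95.9 against 61.9 and 48.7 (-0.78 ± 0.11). Hdac9, a class II deacetylase that binds MEF2 factors, rose from 2.43 and 2.88 CPM to 6.24 and 6.39 (1.24 ± 0.24, adjusted p = 0.0014), 1 of 2 rises among 29 chromatin regulators and the only one without LacZ replicate 2 or MGT replicate 2.

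Among cell division genes those of mitosis differed between the MGT libraries, at a summed FPKM of 377 and 316. Those of replication hardly did, at 356 and 354. None of 22 replication and none of 22 mitosis genes passed edgeR's test, with medians of -0.11 and -0.16. Mki67, present in dividing cells, measured 195 and 205 CPM under LacZ and 193 and 86.4 under MGT (-0.52 ± 0.24, adjusted p = 0.24), so MGT replicate 1 stood with the LacZ libraries and MGT replicate 2 below them. Without MGT replicate 1 the change was -1.22 (adjusted p = 0.000193) and 3 mitosis genes were lower. With no filter the change of Mki67 was called as well (-0.52 ± 0.092, adjusted p = 6.8e-07), at a smaller standard error than 0.24. The replicate block also called it (-0.62, adjusted p = 0.0276). Of 9 cell cycle inhibitors 2 were higher and 1 lower. The growth arrest gene Gadd45g rose from 82.8 and 82.3 to 130 and 144 (0.73 ± 0.097), 1 of 2 rises among 9 cell cycle inhibitors and the only one unless MGT replicate 1 or none was left out.

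Gene ontology terms of the deposited table placed mostly muscle terms at the high end and a mixed set at the low end. Among 1175 terms with 10 to 200 tested genes, the term medians had a median of -0.002, and the 6 highest and 6 lowest medians are named here after leaving out terms that shared over 50% of their genes with one already named. The highest was "structural constituent of muscle", with 11 of 22 genes higher, none lower and a median of 0.515, followed by "regulation of heart rate by cardiac conduction" (4 of 10 higher, 0.395) and "alpha-actinin binding" (5 of 11 higher and 1 lower, 0.354). "Muscle contraction", "vinculin binding" and "skeletal muscle tissue development" had medians of 0.33, 0.294 and 0.29. In them 7 of 16, 5 of 11 and 5 of 14 genes were higher, and in the last 2 were lower, Eln and Dcn. Of the heart rate term only Dsp held in all fits, and of the vinculin term only Nrap. Over all tested genes 5.22% were higher and 4.02% lower. The lowest was "inner ear morphogenesis" (3 of 11 lower and 1 higher, -0.523), then "cytokine receptor activity" (3 of 11 lower and 1 higher, -0.489) and "peptide hormone binding" (3 of 14 lower and 2 higher, -0.417). "Cellular response to interleukin-1" (-0.343), "extracellular matrix binding" (-0.293) and "single-stranded RNA binding" (-0.262) completed them. Among these 12 terms extracellular matrix binding had the most falls, 7 of 12 genes and none higher, with Eln, Tgfbi, Dcn and Cd248 called in all fits. Of the interleukin-1 term only Mmp3 held in all fits, and of the single-stranded RNA term none of the 3 calls did.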

How the data were processed

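Read counts per gene and the FPKM values used here were deposited by the authors in 1 table of mm10 genes with gene ontology terms. Per the labels' protocols, TRIzol RNA was depleted of ribosomal RNA and sequenced as paired ends from stranded libraries, although the molecule field names polyA RNA. Per the submitters' processing notes, Trimmomatic 0.36, SAMtools and featureCounts of Subread 1.5.1 were used; no source used here gives the aligner, annotation release or strand setting, so antisense and overlapping genes cannot be told apart.

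Library totals came from counts, exon length and FPKM where FPKM was at least 20. They held 16608053 to 18796715 counts, of which 86.925% to 87.504% lay in the table, so 3 counts are 0.16 to 0.1808 CPM. Intervals and this floor cover counting error only. edgeR 4.0.16 fitted 6 group means over 12 libraries (TMM, filterByExpr, quasi-likelihood F-test); a standard error is the absolute change over the root of F. DESeq2 1.42.0, limma 3.58.1 voom, no filter, other library totals, a replicate block, the neonatal libraries alone and leaving out each neonatal library were alternatives.

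Groups followed the treatment field, because every title names MGT. Genes, lists and rules were chosen with earlier results of these data known. Named genes had to be called in all 5 fits: the 12 largest falls and rises from or to 100 CPM, the 6 largest CPM losses and gains, and up to 4 per list; uncalled members were named for their role. Genes outside this rule, such as Krt7, Krt8, Ogn, Gpc1, Itga3, Itga8, Gja1, Igfbp6, Ptgs1 and Lfng, were chosen after their values were seen. Some genes that entered these counts are not reported here by name.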

Additional observations from a re-analysis of the deposited data

Results flagged for a closer look

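Each result here is a difference between the neonatal change and the mean of the adult and aged changes, log2, tested as a contrast in the edgeR fit over 12 libraries. The genes were picked on the neonatal change, which is part of the contrast, and age and cell preparation cannot be told apart. Of all tested genes 3.93% were called in it.

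Among the falls, Lrrn4 differed most, by -2.78 ± 0.24 (adjusted p = 4.7e-07), with adult and aged levels of at most 3.37 CPM under either vector. Igfbp4 differed by -1.99 ± 0.18 and Ezr by -1.93 ± 0.12.

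Among the rises, Tnnt2 differed by -4.54 ± 0.21 (adjusted p = 8.4e-11): it started at 2.90 and 3.29 CPM in adult and aged LacZ cells and reached 296 and 252 under MGT, against a neonatal start of 285 CPM. Clu differed by -2.45 ± 0.14, Des by -1.82 ± 0.15 and Cthrc1 by -1.03 ± 0.14. Jam2 was the only called difference with the larger neonatal rise, by 0.86 ± 0.11; that of Hs6st1 (0.55 ± 0.15) had an adjusted p of 0.054. Myom2 differed by -1.59 ± 0.33, which was not called by limma voom (-1.60, adjusted p = 0.0842) or without LacZ replicate 1 (-1.47, adjusted p = 0.0687). Mtss1 differed by -0.58 ± 0.14, which was not called without LacZ replicate 1 (-0.60), LacZ replicate 2 (-0.56) or MGT replicate 1 (-0.43).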

How the results depend on the processing

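Leaving out 1 neonatal library at a time gave 631 to 917 called genes, 372 to 483 higher and 240 to 434 lower, and 256 to 352 called differences with older cells. The 4 neonatal libraries fitted alone gave 1688 calls, 910 higher and 778 lower, and the difference with no filter on low counts gave 746. Other settings stayed within 1.5 times the count: DESeq2 994, limma voom 1122, no filter 1322 and column sums as library totals 1103.

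With the replicate number as a block 1172 genes were called, 651 higher and 521 lower, and 558 differences. Same-numbered libraries hardly deviated together over all tested genes (r = 0.016 in neonatal, 0.048 in adult and 0.007 in aged cells). Counting error enters these deviations too, so a low r cannot decide whether the numbers pair the libraries. The block also called the change of Mki67 (-0.62, adjusted p = 0.0276) and the differences of Cyp1b1 (-0.42, adjusted p = 0.0268), Mustn1 (-0.60, adjusted p = 0.00886) and Hs6st1 (0.55, adjusted p = 0.0256).

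Of the changes of single genes, 1384 values over the alternatives kept direction and side of the threshold, 10 crossed into it and 3 (Iigp1, Cxcl10 and Bnc1, all under DESeq2) out of it. Of the differences of the 24 genes with older cells, 193 values kept their side, 17 crossed into the calls and 5 out of them. The gains were in Cyp1b1 (5 alternatives), Mustn1 and Hs6st1 (4 each, among them no filter with adjusted p = 0.00086 and 0.00134) and, with no filter alone, Iigp1, Nid2 and Npnt among others. Without 1 library Hes1 ranged from -0.14 to 0.10, turning to 0.02 without LacZ replicate 1 and 0.10 without MGT replicate 2, and the difference of Col3a1 from -0.22 to 0.05, the latter without MGT replicate 2. Neither was called, and the cause was not tested. Leaving out a library also leaves 1 sample in an arm, which is assumed to vary like the other groups.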
